A study of Mus musculus with 6 samples.

Results

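The genes described here make, regenerate, inactivate and sense glucocorticoid hormone in the gut. They were chosen by name as 9 of the 33017 genes in a count table of mouse small intestine: the receptor genes Nr3c1 and Nr3c2, the regulator gene Nr5a2, the synthesis genes Star, Cyp11a1 and Cyp11b1, the hormone-converting genes Hsd11b1 and Hsd11b2, and H6pd. All 9 symbols are in the table, 7 passed the filter on low counts, and 6 had enough reads to be read. Cyp11a1, Cyp11b1 and Hsd11b1 were too low to read. Messenger RNA was sequenced from 3 libraries labelled model and 3 labelled control. The title of the series ties the disorder under study to simulated microgravity and radiation, and the design text speaks of the joint effect of both factors, so the question was which transcripts differed in model tissue. The labels give no strain, sex, age, dose, exposure time or intestinal segment, and none of the 6 libraries is labelled as given the compound named in the title. They also do not state whether the 3 libraries of a group are separate animals. The p-values therefore measure the spread between these libraries alone, which may not be the spread between animals.

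In mice the main glucocorticoid is corticosterone, which is made from cholesterol. The protein of Star carries cholesterol into mitochondria, the Cyp11a1 enzyme cuts its side chain, and the Cyp11b1 enzyme makes the last step to corticosterone. The adrenal gland is the main source, but crypt epithelium of the intestine can also make the hormone, under the control of the nuclear receptor Nr5a2 (liver receptor homolog) in place of the adrenal factor Nr5a1. Within cells the enzyme of Hsd11b1 regenerates active hormone, using NADPH that the H6pd enzyme supplies inside the endoplasmic reticulum, and the enzyme of Hsd11b2 inactivates it. The hormone acts through the glucocorticoid receptor (Nr3c1), and in cells without Hsd11b2 also through the mineralocorticoid receptor (Nr3c2).

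RefSeq windows of 300 bases around gene starts (250 bases before and 50 after, build GRCm38.p6) matched 5 of the 9 genes: Nr5a2 and Cyp11a1 with 2 starts each, and Hsd11b1, H6pd and Nr3c2 with 1 each. Nr5a2 and its relatives bind AAGGTCA, a letter motif that was searched on both strands. It occurred in 1 of these 7 windows, that of H6pd, and in 4.72% of all 32851 windows. Its shorter part AGGTCA, a half-site of many nuclear receptors, was in 3 of the 7 windows (Nr5a2, H6pd and Cyp11a1) and in 16.26% of all windows. ACANNNTGT, a core of the glucocorticoid response element, was in 0 of the 7 windows and in 6.85% of all. The H6pd window and that of the first Nr5a2 start are printed to show the match in the regulator and in the only gene with the longer motif. Both are on the minus strand, in the direction of transcription, with the match in capitals; H6pd lies at chr4:150003187-150003486 and Nr5a2 at chr1:136960399-136960698.
H6pd: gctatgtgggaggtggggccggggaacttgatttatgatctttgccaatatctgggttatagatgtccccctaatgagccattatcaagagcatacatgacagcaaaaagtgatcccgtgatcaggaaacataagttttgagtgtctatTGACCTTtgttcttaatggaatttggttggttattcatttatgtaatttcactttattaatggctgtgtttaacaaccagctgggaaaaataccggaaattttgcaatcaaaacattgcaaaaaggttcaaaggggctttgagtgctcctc
Nr5a2: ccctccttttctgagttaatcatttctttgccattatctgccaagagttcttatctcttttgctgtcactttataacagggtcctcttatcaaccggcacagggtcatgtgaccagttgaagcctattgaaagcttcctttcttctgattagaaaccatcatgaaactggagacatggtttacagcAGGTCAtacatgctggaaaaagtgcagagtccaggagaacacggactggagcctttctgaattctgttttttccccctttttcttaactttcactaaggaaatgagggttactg
In H6pd the capitals are the reverse complement of the longer motif and begin 101 bases before the start. In Nr5a2 they are the shorter motif and begin 64 bases before it. The counts were made on another build (GRCm39) and do not tell the starts apart, so a match is a description of these letters only.

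The libraries held 35007515 to 43664883 counts in the model group and 36158165 to 45285564 in the control group. Levels are given in CPM, read counts scaled to the TMM-adjusted total of each library. The intestinal label fits the epithelial markers Vil1, at 1991 to 2389 CPM in 5 libraries and 1810 CPM in control 3, and Epcam, at 1208 CPM or more in every library. The libraries did not all show the same stretch of gut. Control 3 had the ileal genes Fabp6 at 1166 CPM and Slc10a2 at 648 CPM, against at most 0.285 CPM of Fabp6 and 4.6 CPM of Slc10a2 in the other libraries. Its proximal regulator Gata4 was at 1.90 CPM, against at least 214 CPM elsewhere. Control 3 also held the fat cell hormone Adipoq, with 505 counts against at most 3 counts in any other library. Model 3 held pancreatic acinar genes, with a summed level of 6204 CPM over the 10 listed, against 5.15 to 27.8 CPM in the other libraries. Model 1 was low in long transcripts: across 15356 genes its deviations had a Spearman correlation of -0.38 with transcript length, against -0.05 to 0.23 in the other libraries, as a description across genes, which are not independent. Since these are bulk samples, fewer cells of a type and less RNA per cell cannot be told apart.

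Nr3c1 was the most abundant of the 6 readable genes, and for none of them did the 2 groups differ beyond the test's threshold. Set per kilobase of annotated exon, Nr3c1 averaged 22.9 ± 5.07 CPM per kb in model and 30.2 ± 2.79 CPM per kb in control libraries (SD, n = 3 each here and below). Nr3c2 followed at 9.95 ± 1.69 in model and 10.6 ± 1.16 CPM per kb in control libraries, Nr5a2 at 9.16 ± 2.07 in model and 8.98 ± 1.89 in control libraries, and H6pd at 9.90 ± 3.39 in model and 7.60 ± 1.44 in control libraries. Hsd11b2 stood at 5.25 ± 0.416 CPM per kb in model and 9.09 ± 8.27 in control libraries, and Star at 1.35 ± 0.404 in model and 1.09 ± 0.212 in control libraries. Over all 6 libraries Nr3c1 (17.3 to 33.0 CPM per kb) did not overlap with Nr3c2 (8.16 to 11.5), Nr5a2 (6.79 to 10.6) or H6pd (5.98 to 13.0), which overlapped with each other. Hsd11b2, at 4.12 to 18.6 CPM per kb, was below Nr3c1 in every library. Its order against Nr3c2, Nr5a2 and H6pd was not the same in every library. Star, at 0.937 to 1.75 CPM per kb, lay below all of them. Exon lengths are from the GRCm38 annotation, so these levels are approximate.

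**Figure D1:**
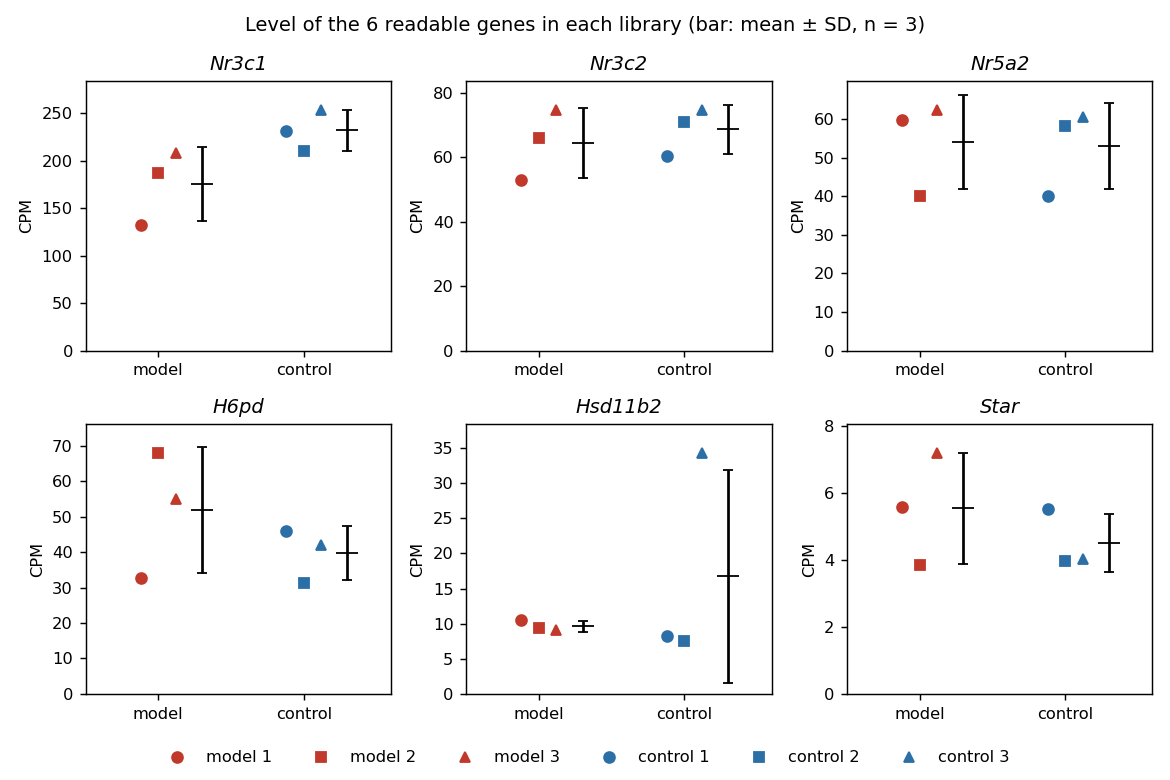
CPM (linear axis from 0) of the 6 readable genes in each library, model libraries at the left and control libraries at the right of each panel, with the mean ± SD of 3 libraries as a bar. Only Nr3c1 has its 3 model points all below its 3 control points, and the wide control bar of Hsd11b2 comes from control 3 at 34.3 CPM.

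edgeR's quasi-likelihood test with Benjamini-Hochberg adjustment over 15904 genes called 0 of the 6 readable genes, as it called 0% of all genes (smallest adjusted p 0.851). None of the 6 had an unadjusted p under 0.05 in edgeR, where 4.81% of all genes did (1.82% higher and 2.99% lower in model), and DESeq2 called 0 of them against 0.158% of the 15836 genes it could adjust. Of the 6 log2 fold changes, 3 were above 0 and 3 below, while 48.2% of all tested genes were above 0. The 2 groups did not overlap in CPM for 1 of the 6 genes, Nr3c1; among all tested genes 11.1% did not overlap, and those lower in model were 6.33% of all tested genes.

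**Figure D2:**
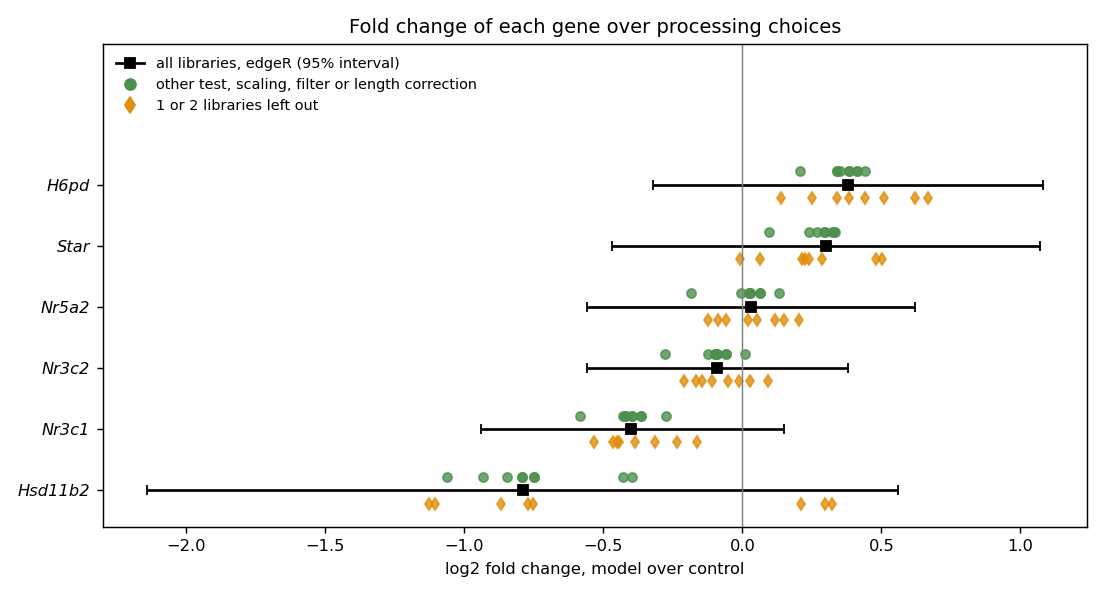
log2 fold change of model over control (horizontal axis) for the 6 readable genes: black squares are edgeR with all libraries and a 95% interval, green points are other tests, scalings, filters or the length correction, and orange diamonds leave out 1 or 2 libraries. Every black interval includes 0; the points of Nr3c1 all lie below 0 and those of H6pd above it, and Hsd11b2 is on the right of 0 in the 3 fits without control 3.

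Nr3c1, the glucocorticoid receptor gene, had 132.6, 187.5 and 207.9 CPM in model 1, 2 and 3, against 231.4, 210.6 and 253.5 CPM in control 1, 2 and 3. Each model library was below each control library, although model 3 and control 2 lay close together. The means were 176 ± 39.0 CPM in model and 232 ± 21.4 CPM in control tissue. The log2 fold change was -0.40 (SE 0.23, 95% interval -0.94 to 0.15, edgeR adjusted p = 0.851). Model 1, the library low in long transcripts, set part of the size: without it the log2 fold change was -0.24, and without both control 3 and model 1 it was -0.16. After a correction for transcript length in each library the levels were 160, 182 and 197 CPM in model and 220, 211 and 221 CPM in control libraries, still without overlap, with a log2 fold change of -0.27 (edgeR unadjusted p = 0.16). Smooth muscle markers moved in the same direction, with a summed level of 1106 to 1302 CPM in model and 1532 to 2299 CPM in control libraries over all 8 listed genes. The list of mast cell and basophil markers summed to 17.2 to 24.2 CPM in model and 27.4 to 56.1 CPM in control libraries over 10 genes. Of these, Mcpt4, Tpsb2, Cma1, Fcer1a and Ms4a2 had at most 16 counts in any library. That sum therefore rested mainly on the other listed genes and is no measure of these cells by itself. T cell markers were higher in model, with 138 to 175 CPM in model and 95.9 to 129 CPM in control libraries over 7 genes. Fibroblast and macrophage markers overlapped between the groups. The 8 adipose markers summed to 126 to 233 CPM in model and 96.3 to 121 CPM in control libraries, but the fat cell hormones among them were at or near 0 in the model group. Adipoq had 0, 0 and 2 counts in model and 3, 0 and 505 in control libraries, and Lep had 0 counts in each model library and 2, 0 and 15 in control libraries. The part of any of these cells in the Nr3c1 values was not tested.

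Nr3c2, the mineralocorticoid receptor gene, had 52.9, 65.9 and 74.5 CPM in model 1, 2 and 3, against 60.3, 71.0 and 74.7 CPM in control 1, 2 and 3. The groups overlapped, with model 1 lowest and model 3 beside control 3. The log2 fold change was -0.09 (SE 0.20, 95% interval -0.56 to 0.38), and its sign turned without model 1 (0.026). The count ratio of Nr3c1 to Nr3c2 needs no scaling of libraries. It was 2.51, 2.85 and 2.79 in model 1, 2 and 3, against 3.84, 2.97 and 3.39 in control 1, 2 and 3. The ratio was below every control library in each model library, although model 2 (2.85) and control 2 (2.97) lay close together. It averaged 2.71 ± 0.181 in model and 3.40 ± 0.437 in control tissue. Of all tested genes 6.33% were lower in model without overlap, and no such share was computed for ratios. Nr3c1 by itself did not overlap either, so the ratio is not a result separate from it. The difference in mean log2 ratio was -0.32, between -0.41 and -0.23 when each library was left out in turn, and -0.29 with the length trend removed. With 3 libraries against 3 an exact permutation test cannot go below p = 0.1, and none was run on this ratio.

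**Figure D3:**
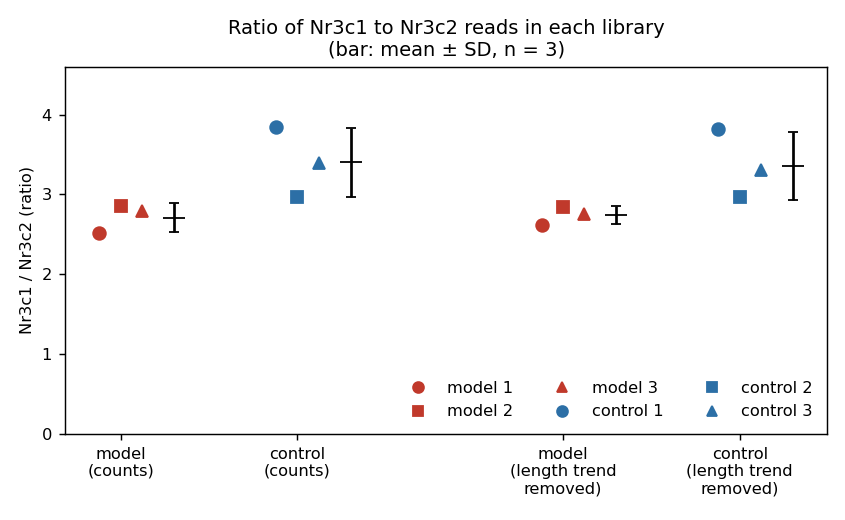
Ratio of Nr3c1 to Nr3c2 reads (linear axis from 0) in each library, from the counts at the left and with each library's length trend removed at the right, with model before control and the mean ± SD of 3 libraries as a bar. The model libraries lie between 2.51 and 2.85 from the counts and the control libraries between 2.97 and 3.84.

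Genes whose log2 CPM followed the receptors most closely over the 6 libraries were taken from 10970 other genes with a mean of at least 5 CPM. For Nr3c1 these were the calcium channel gene Cacna1e (Pearson r = 0.997), Frmd6 (0.996) and Dcun1d2 (0.995). Cacna1e had 7.34, 15.01 and 17.8 CPM in the model libraries and 23.0, 17.4 and 27.8 CPM in the control libraries. For Nr3c2 they were Prdm2 (0.998), Zfp26 (0.987) and Fbxo11 (0.986). These correlations describe 6 libraries that differ in gut segment and in length trend, and the best of so many genes is high by selection.

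Nr5a2, the regulator of local hormone synthesis, had 59.7, 40.0 and 62.3 CPM in model 1, 2 and 3, against 40.2, 58.2 and 60.5 CPM in control 1, 2 and 3. Model 2 and control 1 shared a low value near 40 CPM and the other 4 libraries lay between 58.2 and 62.3 CPM, so that each group held both levels. The means were 54.0 ± 12.2 CPM in model and 53.0 ± 11.1 CPM in control tissue, with a log2 fold change of 0.03 (SE 0.25, 95% interval -0.56 to 0.62), and with libraries scaled by size alone it was -0.19. That interval is wide enough that equal levels are not shown. Nr5a2 is also a gene of pancreatic acinar cells. Model 3, with the acinar genes, was at 62.3 CPM. Control 3, where the acinar list summed to 5.15 CPM, was at 60.5 CPM, but it also differed from model 3 in its ileal profile. The part of acinar RNA in the Nr5a2 values was not tested. Closest in pattern were Kiz (r = 0.986), Rgs13 (0.977) and Arih2 (0.969).

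Of the synthesis genes only Star was readable. Star had 5.57, 3.86 and 7.18 CPM in model 1, 2 and 3, against 5.51, 3.96 and 4.04 CPM in control 1, 2 and 3. The groups overlapped, with model 3 highest and model 2 lowest, and the log2 fold change was 0.30 (SE 0.33, 95% interval -0.47 to 1.07). Without model 3 it was 0.065, and without control 3 and model 3 it was -0.008. Its closest genes were Rabep1 (r = 0.986), the mitochondrial glutamate dehydrogenase gene Glud1 (0.973) and Tmem219 (0.969).

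Cyp11a1, the entry enzyme of steroid synthesis, had 5, 0 and 2 counts in model 1, 2 and 3, against 2, 0 and 7 counts in control 1, 2 and 3. That is 7 counts in all in the model and 9 in the control group, and no fold is given. Cyp11b1 had 0, 71 and 2 counts in model 1, 2 and 3, against 14, 1 and 52 counts in control 1, 2 and 3. It was thus seen mainly in model 2 (1.61 CPM) and control 3 (1.23 CPM), 1 library of each group, and its group means stayed under 1 CPM. Cyp11b2, a related gene whose enzyme makes aldosterone, had 0, 3 and 4 counts in the model and 4, 0 and 23 counts in the control libraries. Whether reads of the pair were split between them was not tested. Among genes with 1 to 10 counts in a library, 63.3% to 68.6% of the genes had an even count, so a single count there may not be a separate molecule. Of 8 steroid gland markers, 6 had counts above 0, and their summed level was 70.0 to 146 CPM in model and 20.2 to 48.2 CPM in control libraries, without overlap. Nearly all of it was Akr1b7, an aldo-keto reductase gene, at 146, 68.5 and 121 CPM in model and 35.7, 47.1 and 18.4 CPM in control libraries. The defining steroid genes were at or near 0: Mc2r and Hsd3b1 were at 0 in every library, Cyp17a1 at no more than 8, Cyp21a1 at no more than 5 and Nr5a1 at no more than 26 counts. A difference in Cyp11a1 between model and control was not detectable at this depth, where 3 counts correspond to 0.0626 to 0.104 CPM. For Cyp11b1 the spread between libraries of 1 group, 0 to 71 counts in model and 1 to 52 in control, was too wide to read a difference.

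Hsd11b1, the gene of the hormone-regenerating enzyme, is listed at 0 in all 6 libraries. The same holds for Fabp2, an abundant fatty acid binding gene of enterocytes, and for G6pdx, the widely used cytosolic counterpart of H6pd. The 0 of Hsd11b1 was therefore not read as absence of its transcript, no ratio to Hsd11b2 could be formed, and no upper limit is given.

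Hsd11b2, which inactivates the hormone, had 10.5, 9.34 and 9.09 CPM in model 1, 2 and 3, against 8.30, 7.59 and 34.3 CPM in control 1, 2 and 3. Control 3 stood far above the other 5 libraries, which lay between 7.59 and 10.5 CPM. The log2 fold change over all libraries was -0.79 (SE 0.58, 95% interval -2.14 to 0.56, edgeR adjusted p = 0.851). Without control 3 it turned to 0.30 (edgeR unadjusted p = 0.295), and each of the 3 model libraries was then above control 1 and control 2. The share of all genes that separate in this way without control 3 was not computed. With the length trend removed, model 1 and control 1 were both at 8.43 CPM. Control 3 was the library with ileal markers, with a summed level of 2738 CPM over 7 genes against 167 to 379 CPM in the others, and with proximal markers at 471 CPM over 8 genes against 3721 to 6267 CPM in the others. Whether the segment set the Hsd11b2 level was not tested, since only 1 library had this profile. Closest in pattern were the lysophospholipid acyltransferase gene Lpcat4 (r = 0.993), Rtn4 (0.990) and the aspartoacylase gene Aspa (0.988), each with its top value in control 3.

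**Figure D4:**
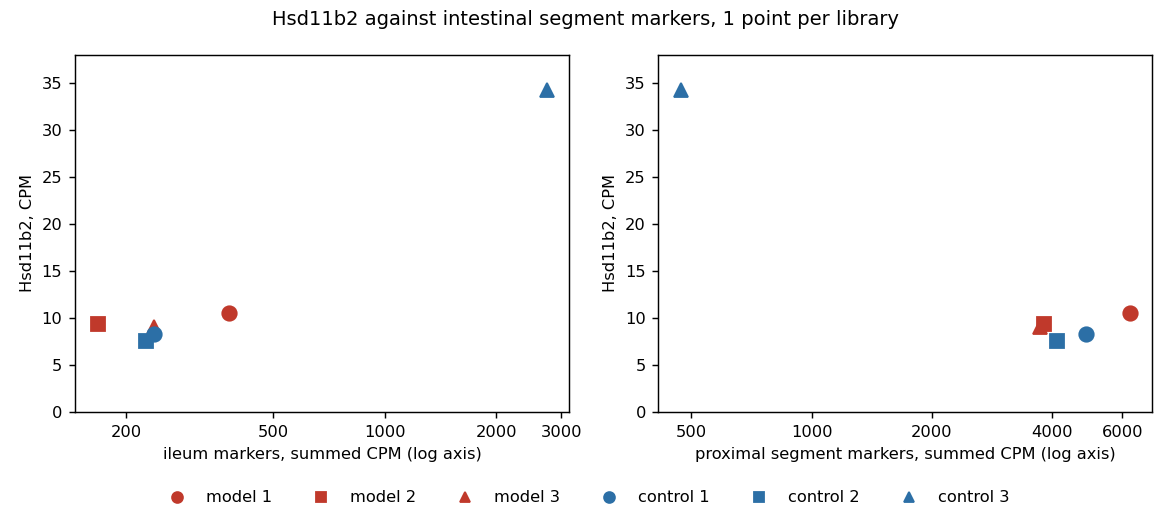
Hsd11b2 level in CPM (vertical axis, linear) against the summed CPM (horizontal log axis) of 7 ileum markers at the left and of 8 proximal segment markers at the right, with 1 point per library. Control 3 stands alone at 34.3 CPM with the highest ileal and the lowest proximal sum, and the other 5 libraries lie between 7.59 and 10.5 CPM.

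H6pd had 32.7, 67.9 and 54.9 CPM in model 1, 2 and 3, against 45.9, 31.3 and 42.1 CPM in control 1, 2 and 3. Model 2 and model 3 lay above all control libraries, and model 1 lay between control 2 and control 3. The means were 51.8 ± 17.8 CPM in model and 39.8 ± 7.56 CPM in control tissue, with a log2 fold change of 0.38 (SE 0.30, 95% interval -0.32 to 1.08, edgeR adjusted p = 0.851). Leaving out model 1 gave 0.62 (edgeR unadjusted p = 0.0305), leaving out model 1 and control 3 gave 0.67 and leaving out model 2 gave 0.14, and none of these passed the adjusted threshold. Closest in pattern were the adrenergic receptor gene Adra2a (r = 0.984), Sbf1 (0.982) and Ddx31 (0.980).

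Genes around this pathway were counted by list, and 0 of them were called by edgeR. Of 8 tested genes for hexose phosphate and NADPH supply around H6pd, 7 were higher in model (median log2 fold change 0.19, against -0.018 over all tested genes), but the groups overlapped for each. Slc37a4, which brings glucose phosphate into the endoplasmic reticulum, had 195, 68.9 and 114 CPM in the model and 84.3, 87.1 and 28.3 CPM in the control libraries. Its log2 fold change of 0.92 was 0.46 without model 1, 0.58 without control 3, and 0.092 without both. The pentose phosphate enzymes Tkt, Taldo1 and Pgls had log2 fold changes of 0.22, 0.28 and 0.31 with SEs of 0.25, 0.31 and 0.34. The count rested on model 1: without model 1 the genes higher in model were 3 of 8, and without control 3 and model 1 they were 2 of 8. With library size alone the genes higher in model were 4 of 8 (median -0.012). That scaling moved the median of all tested genes from -0.018 to -0.212, which applies to each library-size value of the lists below.

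Of 22 other genes for hormone synthesis and its control, 11 could be tested, 7 higher and 4 lower in model, with a median of 0.19. Hsd3b1, Hsd3b2, Hsd3b6, Cyp17a1, Cyp21a1 and Cyp11b2 were among those not tested, at no more than 23 counts in any library. The median was 0.794 over the 7 genes with at least 5 CPM in 3 libraries, all higher, against 0.009 over all genes of that fit. The list median was 0.413 without control 2. It was 0.093 without model 1, -0.018 with library size alone and -0.078 without control 3 and model 1, with 5 higher and 6 lower in each of the last 2 fits. Por, the electron donor of microsomal P450 enzymes, had 487, 318 and 366 CPM in the model and 288, 246 and 70.8 CPM in the control libraries, without overlap (log2 fold change 0.95, SE 0.49). Control 3 was the low library, and without it the value was 0.565, or 0.355 without control 3 and model 1. Fdx1, the electron donor of the mitochondrial enzymes, had 67.0, 28.7 and 35.2 CPM in model and 22.2, 35.7 and 12.9 CPM in control libraries, which overlapped. Its log2 fold change of 0.88 was 0.43 without model 1, 1.33 without control 2, and 0.135 without control 3 and model 1. Scarb1, which encodes a cholesterol uptake receptor, stood at a log2 fold change of 0.81 (SE 0.71), or 0.37 without either control 3 or model 1 and 1.84 without control 2. Crhr2, a receptor of the stress peptide family, was at 0.173 to 0.249 CPM in model and 0.522 to 0.641 CPM in control libraries, a log2 fold change of -1.44 (SE 0.55) from very low levels.

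Of 8 tested genes for clearance and transport of corticosteroids 5 were higher and 3 lower in model, with a median of 0.34, which was 0.089 without model 1 and 0.128 with library size alone. The drug and steroid oxidases Cyp3a11 and Cyp3a13 had no overlap between groups: Cyp3a11 was at 6051, 1865 and 2356 CPM in the model and at 1019, 1512 and 53.0 CPM in the control libraries. Cyp3a13 averaged 720 ± 127 CPM in model and 351 ± 224 CPM in control tissue (log2 fold change 1.04, SE 0.56). Abcb1a, an efflux pump that exports corticosteroids, had 75.5, 79.7 and 108 CPM in model and 140, 85.5 and 528 CPM in control libraries. For these 3 genes control 3 was again the extreme control library. Without it the log2 fold change of Abcb1a was -0.35 in place of -1.52, that of Cyp3a13 was 0.61, and that of Cyp3a11 was 1.455 in place of 1.99. Cyp3a11 was at 1.29 without model 1, and at 0.733 without control 3 and model 1.

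All 14 receptor chaperone genes were above 0 in log2 fold change, where 48.2% of all genes were, with a median of 0.29. With library size alone 10 of 14 were (median 0.082, against -0.212 over all genes). Without control 3 and model 1 also 10 of 14 were (median 0.092). Without model 1 alone the median was 0.129. Of the 14, 3 had groups that did not overlap, where 4.73% of all genes were higher in this way. Hspa8 had 2390, 1819 and 1606 CPM in model and 1131, 1487 and 1302 CPM in control libraries. The log2 fold change of Dnaja1 was 0.84 (SE 0.29), and that of Hsp90ab1, which holds the receptor ready for hormone, was 0.22 (SE 0.26). The list was not higher in each model library: its median deviation from the gene means was 0.43, 0.11 and -0.10 in model 1, 2 and 3, and -0.22, 0.02 and -0.28 in control 1, 2 and 3. Receptor coregulators had 4 genes higher and 8 lower of 12, with a median of -0.11. Ncor1, a corepressor, had 105, 464 and 481 CPM in model and 404, 326 and 289 CPM in control libraries, and the list's median deviation was -0.70 in model 1 and between -0.07 and 0.25 in the others. Without model 1 the direction turned, with 9 genes higher and 3 lower, and with the length correction 7 were higher and 5 lower. Smarca4, Sra1 and Nrip1 had log2 fold changes of -0.13, 0.61 and 0.40 with SEs of 0.20, 0.32 and 0.36.

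All 14 genes of the list of glucocorticoid receptor targets also had positive log2 fold changes, with a median of 0.89, 6 at an edgeR unadjusted p under 0.05 (1.82% of all genes, higher in model) and 4 without overlap (4.73% of all genes, higher in model). With library size alone 11 of 14 were positive (median 0.672, against -0.212 over all genes). Without model 1, 13 of 14 were positive (median 0.58). Without control 3 and model 1 the median was 0.39. The receptor co-chaperone gene Fkbp5, a member of both lists, had 398, 109 and 417 CPM in model and 26.1, 64.3 and 77.9 CPM in control libraries (log2 fold change 2.46, SE 0.60). It was the 1 gene of all 7 lists that DESeq2 called (adjusted p = 0.0162). Mt1 had 142, 84.6 and 122 CPM in the model and 30.8, 62.8 and 34.1 CPM in the control libraries. Sgk1 and Cdkn1a overlapped between the groups, at log2 fold changes of 1.53 (SE 0.61) and 0.65 (SE 0.35). Without model 1 that of Sgk1 was 0.97 and that of Cdkn1a 0.33. Model 2 stood apart from the other model libraries, with a median deviation of -0.27, against 0.96 in model 1 and 0.76 in model 3, and lay within the control range of -0.67 to -0.11. Nr3c1 did not follow that order, as it was 132.6 CPM in model 1, 187.5 CPM in model 2 and 207.9 CPM in model 3. These targets were picked with earlier results on these libraries known and are no independent evidence of a direction.

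Targets of the mineralocorticoid receptor and salt transport genes had 5 of 7 tested members higher and a median of 0.09, with 3 of 7 higher and a median of -0.035 under library size alone. The median was 0.427 without control 2. It was 0.359 with the replicate block and 0.355 with limma-voom, each with 4 of 7 higher. Without control 3 and model 3 it was -0.057, with 3 of 7 higher. Sgk1 is in both target lists. Atp1b1, a sodium pump subunit gene, averaged 1486 ± 78.5 CPM in model and 1181 ± 292 CPM in control tissue, a log2 fold change of 0.33 that was 0.20 without control 3 and 0.56 without control 2. The sodium channel genes Scnn1b and Scnn1g had at most 3 counts in any library.

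**Figure D5:**
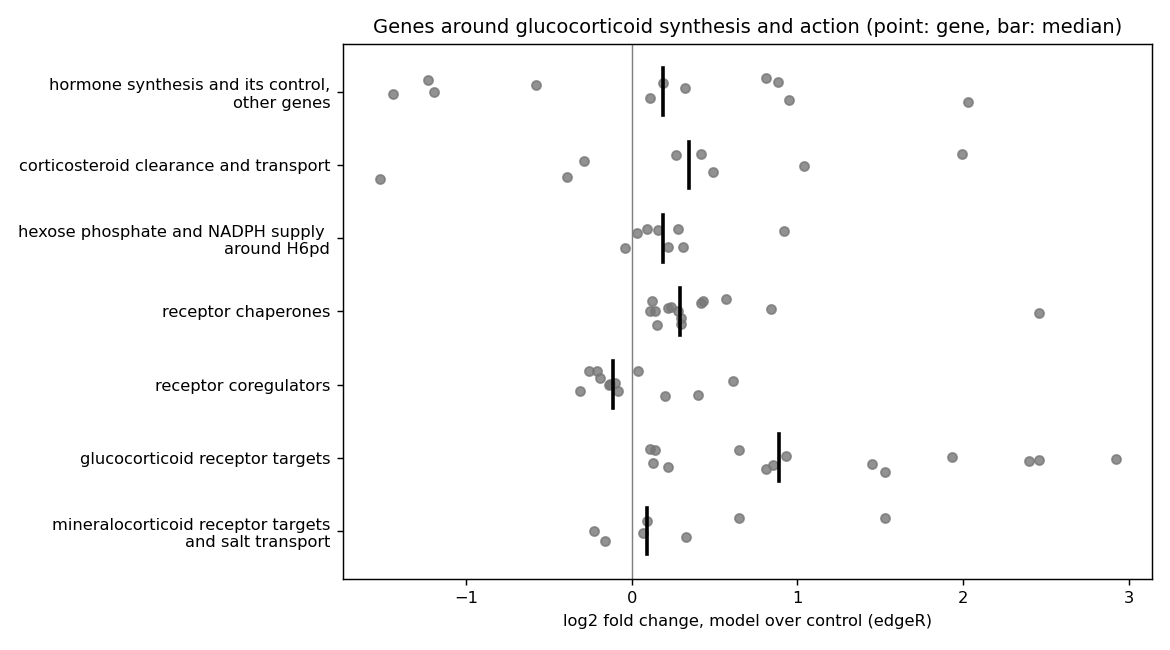
log2 fold change of model over control (horizontal axis, edgeR) for each tested gene of 7 lists around glucocorticoid synthesis and action, with 1 point per gene and a bar at the median. With TMM scaling all points of receptor chaperones and of glucocorticoid receptor targets lie above 0. With library size alone 10 of 14 and 11 of 14 do, where the median of all genes was -0.212. Fkbp5, at 2.46, stands in both lists.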

How the data were processed

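The 6 libraries, 3 model and 3 control, hold poly-A RNA of frozen small intestine from mice. The deposited table holds the authors' unnormalized counts, by gene symbol and library, made with FastQC, Trimmomatic, STAR and featureCounts on build GRCm39, per the submitters' processing notes; for versions, annotation and strand setting the sources used here give nothing. Columns were matched by library name, with 0 unmatched.

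Genes kept by filterByExpr (15904 of 33017) were scaled by TMM and tested with edgeR 4.0.16 (quasi-likelihood, robust, R 4.3.3), adjusted by Benjamini-Hochberg over all tested genes with a threshold of 0.05. Each SE was derived from the log2 fold change and its F statistic, and intervals use the test's degrees of freedom. A gene removed by the filter, or with a mean under 1 CPM in both groups, was called too low to read. On simulated data made from these libraries, in 15904 genes, 48% of 4-fold and 3% of 2-fold changes were called. No 2 libraries of a group were duplicates (chi-square over degrees of freedom of 111.7 to 543.4). The length trend was a lowess curve over 15356 genes (96.6%) with a GRCm38 exon length, entered as an offset. Named are all 9 genes, the 2 most abundant and the 2 with the smallest p of each list, and the 3 genes most alike to each readable gene; segment, fat and pancreas markers, Akr1b7, Scnn1b and Scnn1g were named after their values were seen. Results on 2 genes that this rule or the marker lists would name are not reported here. The genes and lists were chosen with earlier results of these data known.

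Alternatives were RLE scaling, library size alone, DESeq2 1.42.0, limma-voom (limma 3.58.1), 2 other filters, a non-robust dispersion, a block for the replicate number, and fits leaving out 1 library. After the data were seen, the length correction and fits without control 3 and model 3, or control 3 and model 1, were added.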

Additional observations from a re-analysis of the deposited data

How the results depend on the processing

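edgeR called 0 genes under each of its alternatives and limma-voom, run once with the main filter and scaling, called 0 (657 at an unadjusted p under 0.05), while DESeq2 called 25 of all genes, with 765 genes at an unadjusted p under 0.05 in edgeR and 1031 in DESeq2; none of the 6 readable genes was called under any alternative, with or without control 3, model 3 or model 1. Nr3c1 kept its negative sign in 17 alternatives (-0.58 to -0.16) and H6pd its positive one (0.14 to 0.67). The log2 fold change of Hsd11b2 was 0.297 without control 3, 0.321 without control 3 and model 3, and 0.211 without control 3 and model 1, with -1.127 the lowest of the fits that left out 1 library. That of Nr3c2 ranged from -0.209 to 0.026 with 1 library left out, and was 0.094 without control 3 and model 1 and 0.009 with the length trend removed. That of Nr5a2 was -0.186 with library size alone, -0.005 with at least 5 CPM in 3 libraries, and -0.124 to 0.204 with 1 library left out. That of Star was -0.008 without control 3 and model 3, and the filter at 5 CPM removed it. Scaling by library size alone moved the median of all genes to -0.212, from -0.018.

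Among named genes, fits without control 3 and model 1 turned Scarb1 to -0.088, Tkt to -0.045, Taldo1 to -0.154 and Pgls to -0.27; without 1 library in turn the ranges were -0.103 to 0.464 for Taldo1, -0.148 to 0.511 for Pgls, -0.256 to 0.471 for Ncor1 and -0.041 to 0.693 for Nrip1. Ncor1 was -0.091 with library size alone, -0.259 with limma-voom, -0.185 with the replicate block and -0.36 without control 3 and model 3, where Nrip1 was -0.017. The cause was not tested.

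Deviations of libraries with the same replicate number correlated at -0.153, -0.266 and 0.309, and those with different numbers at -0.345 to 0.482. This cannot decide whether the numbers pair the libraries, since control 3, model 3 and model 1 differ from the rest in tissue content or length trend. With the replicate number as a block, 0 genes were called, 537 had an unadjusted p under 0.05, and Hsd11b2 was at -0.397 and Nr3c1 at -0.418. With 3 libraries a group, 1 ileal library, counts near 0 for Cyp11a1 and Hsd11b1 and a wide spread for Cyp11b1, the data could not show differences in these genes, and not in Hsd11b2 apart from the segment.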
